A study of Mus musculus with 2 samples.

Results

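Cytosolic ribosomal protein genes, which encode the proteins of the small (Rps) and large (Rpl) ribosomal subunits, were followed through the cell classes of the control and irradiated (IR) mouse parotid gland. Members were chosen by symbol alone, as Rps or Rpl names of the cytosolic ribosome without pseudogene names, and needed at least 100 unique molecular identifiers (UMIs, tags that count single RNA molecules) over both libraries. Of 48825 genes in the files 89 symbols matched and 83 passed, 33 of the small and 50 of the large subunit. Of these, 81 are annotated as protein-coding and 2, Rpl6l and Rps3a3, as processed pseudogenes. The member closest above the limit was Rpl29 with 327 UMIs. Rpl29 had under 100 UMIs in every class with both libraries taken as 1, so single classes show at most 82 members. The closest below the limit was Rps4l with 99, and the other symbols left out were Rpl39l (24 UMIs), Rps3a2 (9), Rpl3l (5), Rps12l1 and Rpl10l (both 0).

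Both groups were wild-type female C3H mice. The IR group had received 6 Gy a day to the head and neck for 5 days, 30 Gy in all, at 6 to 10 weeks of age, and was studied 10 months later. The control group was not irradiated. The glands of 2 mice were dissociated together for each group and gave 1 library each, so the spread between mice cannot be seen and nothing was tested between control and IR. All intervals are exact 95% intervals, binomial for shares and conditional binomial for ratios, and cover counting error only. The UMIs of all cells in a class were added up and are given as a share of UMIs or as counts per 1000000 UMIs of the class (CPM). Each UMI stands for 1 molecule, so levels were not divided by transcript length.

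Most of these proteins are present once in each ribosome, and their genes are expressed together in dividing and resting cells alike. Most of their mRNAs start with a C followed by a run of pyrimidines, the 5′ terminal oligopyrimidine (TOP) tract, through which mTOR and the binding protein Larp1 set how much of the mRNA is translated. A few members have a close relative that can take their place in the ribosome, among them Rps27 and Rps27l, Rpl36a and Rpl36al, Rpl22 and Rpl22l1. Salivary acinar cells devote much of their translation to a small set of secreted proteins, and resting lymphocytes are small cells with little mRNA.

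The start regions of the members that carry the results are shown as 30 bases from RefSeq (GRCm38.p6), 15 before and 15 from the annotated start, 5′ to 3′. Capitals mark the pyrimidine tract nearest to the start, a C followed by at least 4 C or T that began within 10 bases of it on the strand of the gene. The first pair is shown because the share of Rps27l in it was higher in epithelial cells than in lymphocytes. For the second pair the same held for Rpl36al to a lesser degree. The last pair is shown because Rps6 and Rpl15 had the highest ratios of IR over control.
Rps27: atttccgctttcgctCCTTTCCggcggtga
Rps27l: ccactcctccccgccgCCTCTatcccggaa
Rpl36a: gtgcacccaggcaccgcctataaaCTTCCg
Rpl36al: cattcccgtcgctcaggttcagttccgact
Rps6: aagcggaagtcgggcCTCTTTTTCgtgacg
Rpl15: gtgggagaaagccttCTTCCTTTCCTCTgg
These lie at chr3:90213634-90213663 (minus strand) for Rps27, chr9:66946071-66946100 (plus strand) for the upstream one of the annotated starts of Rps27l, chrX:134585639-134585668 (plus strand) for Rpl36a, chr12:69184053-69184082 (minus strand) for Rpl36al, chr4:86857353-86857382 (minus strand) for Rps6 and chr14:18270972-18271001 (minus strand) for Rpl15. In Rps27, Rps6 and Rpl15 the marked tract began at the first base. Pyrimidines also lay directly before it in these 3 windows, so the run in the DNA began further upstream. In Rps27l the tract began 1 base further in, in Rpl36a 9 bases further in, and the window of Rpl36al held none. Bases before a tract were not considered in the counts. Over all members a tract could be read from an annotated start on in 13 of the 61 with a RefSeq start region (21.3%), against 2.97% of 26964 other genes. Within 10 bases of the start it was found in 36 (59%), against 34.3%.

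Reads of these genes are hard to place, since most members have many processed pseudogenes. In the GENCODE M21 annotation (GRCm38), 82 of the 83 members shared a 50-base stretch of their last 300 coding bases with another annotated gene, and in 39 every such stretch was shared. Rpl7a shared with 74 genes, Rpl29 with 59 and Rps2 with 55, while Rpl4 shared only 5.58% of its stretches. The clearest case was Rps3a3, annotated as a processed pseudogene, which held 177929 UMIs against 7246 for Rps3a1, the gene with introns. The counts of such pairs are uncertain, since how reads shared between genes were counted was not examined.

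The files held 22707876 UMIs from 5550 control barcodes and 23890757 from 7793 IR barcodes, of which 3378 and 5286 cells passed the filter of the study (at least 200 genes, at most 5% mitochondrial UMIs), with medians of 2907.5 and 2461.5 UMIs. The libraries shared 12 barcodes, 3 of them among kept cells. Cells fell into 18 classes, 17 of which had markers of their cell type (5 to 8 markers for most, 4 of 5 for striated duct cells and 4 of 4 for cycling cells) and 1 of which was left unnamed. The stromal class also held cells with myoepithelial markers. The IR Etv1+ cells, secretory cells marked by the transcription factor Etv1, were shallow, with a median of 4741 UMIs against 19511 in the control library. A doublet caller marked 32 control cells and 1 of 5286 IR cells, a count too low to rely on, so no cell was removed from the main results.

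The ribosomal protein share of UMIs differed more between cell types than between the libraries. It was highest in CD8+ T-cells, with 37.7% of UMIs in the control library and 32.8% in the IR library, followed closely by T-cell cluster 2 (37.5% and 32.7%) and T-cell cluster 1 (37.1% and 32.2%). B-cells had 26.4% and 23.8%. At the other end acinar cells had 3.67% (95% interval 3.65 to 3.69%) in the control library and 4.18% (4.16 to 4.21%) in the IR library, Etv1+ cells 3.78% and 4.08%, and intercalated duct cells 4.06% and 4.12%. The 3 secretory and duct classes thus lay far below every lymphocyte class in both libraries.

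The other immune classes formed a middle range. T-cell cluster 3, led by the activation genes Tnfrsf4, Ctla4 and Icos, had 25% and 23.3%, cycling cells 25.3% and 21.8%, natural killer cells 23.3% and 19.5%, and Cxcr6+ T-cells 22% and 21.2%. Macrophages and dendritic cells lay between 13.9% and 17.5% in the control library. Stromal cells had 13.2% and 10.0%, endothelial cells 11.6% and 11.3%, and striated duct cells 8.44% and 6.63%. In the control library no interval of a class overlapped that of its neighbour in this order, and in the IR library only those of CD8+ T-cells and T-cell cluster 2, and of intercalated duct and Etv1+ cells, did.

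**Figure D1:**
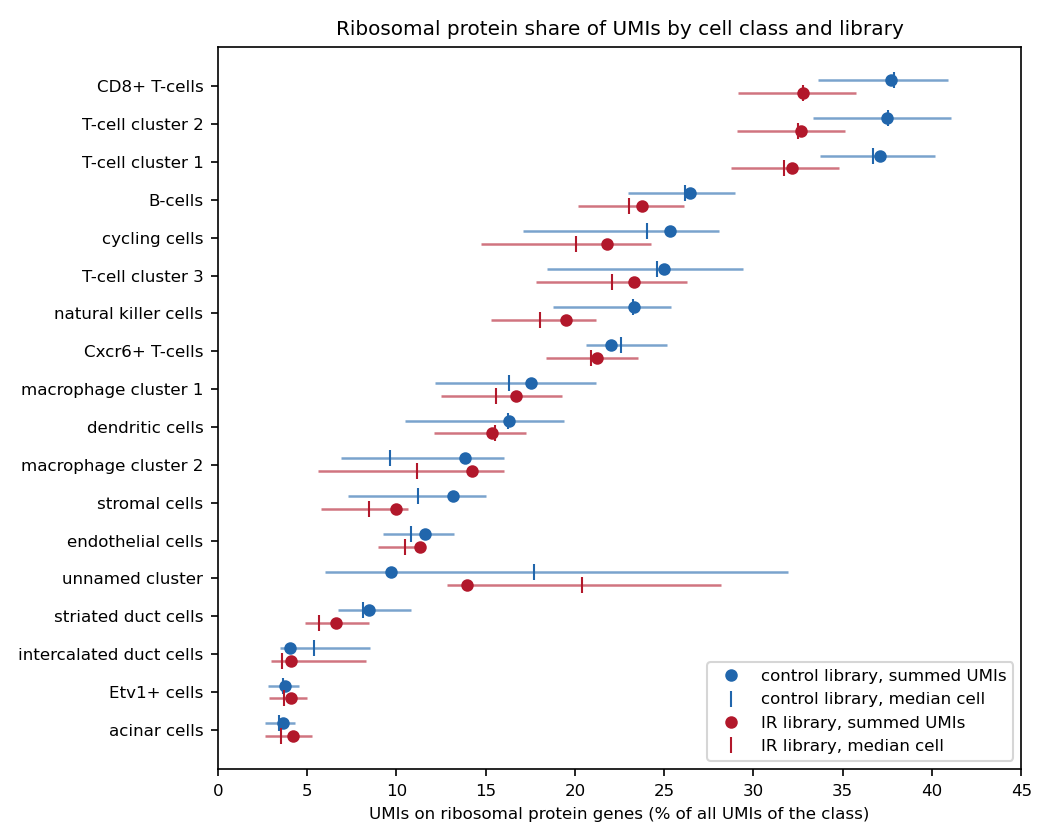
Share of UMIs on the 83 ribosomal protein genes (horizontal axis, % of all UMIs) in 18 cell classes of the control (blue) and IR (red) library. Points give the share of the summed UMIs, ticks the median cell and lines the range from the lower to the upper quartile of cells. Lymphocyte classes lie at the top and secretory classes at the bottom, and the IR point lies to the left of the control point in all lymphocyte classes.

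The size of the gap between secretory cells and lymphocytes depended on which mRNAs were in the total. A list of 22 secretory genes such as Bpifa2, Smr3a and Pip took 73.3% of UMIs in control and 69.3% in IR acinar cells, and 6.92% and 6.09% in B-cells, a cell type not known to make these proteins. The source of these UMIs in B-cells, free RNA or doublets, was not measured. The ratio of acinar cells over B-cells in ribosomal protein CPM was 0.139 in the control library and 0.176 in the IR library. Once the 71 abundant genes (secretory, mitochondrial, haemoglobin and Gm42418) were taken out of the total, it was 0.474 and 0.529, and with the 22 secretory genes alone taken out 0.485 and 0.539. Acinar cells stayed lower on these scales, by a factor that depended on the scale.

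Single cells within a class varied widely. In control acinar cells the share ran from 0.864% to 26.2% with a median of 3.42%, and in IR acinar cells from 0.934% to 27.8% with a median of 3.53%. After thinning to 1000 UMIs a cell, the medians were 3.4% and 3.4%, from 364 and 361 cells. Over 10% of UMIs fell on members in 16 of 382 control and 44 of 385 IR acinar cells. These cells were shallower than the rest (medians of 1371 and 2468 UMIs), had fewer secretory UMIs (medians of 43.2% and 42.7%) and more often held a UMI of an immune gene such as Cd79a, Cd3e or Cd74 (8 of the 16 and 28 of the 44, against 13.4% and 21.4% of the rest). The part of RNA from other cells in their values was not tested. Results that rest on acinar cells are given with and without them below where they moved.

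Among themselves the members differed widely in level. The highest shares of member UMIs in the control library were those of Rps24 (3.41%), Rplp1 (3.35%), Rpl23 (2.56%), Rps4x (2.47%) and Rps20 (2.44%). The lowest were those of Rpl29 (0.00414%), Rpl6l (0.0144%), Rpl7l1 (0.0232%), Rpl26 (0.0455%) and Rps3a1 (0.107%), and of these Rpl29, Rpl6l, Rpl26 and Rps3a1 shared at least 80% of the 50-base stretches at their coding ends with other genes. Rpsa, the laminin receptor and small subunit protein, had 2.4% of member UMIs in the control library and 2.95% in the IR library, and Rps27a, which is made as a fusion with ubiquitin, 1.59% and 1.67%. The small subunit as a whole took 49.8% of member UMIs in control B-cells, 43.4% in control acinar cells and 41.9% in control Etv1+ cells, and 49.3%, 44.8% and 43% in the IR library. Secretory cells were thus lower in small subunit mRNA, relative to the large subunit, than B-cells in both libraries.

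Acinar cells and B-cells were compared member by member, in each library on its own, with a 2-fold rule over genes that had at least 100 UMIs in both classes together. In CPM 81 of 82 members were lower in acinar cells in both libraries and none was higher. Of all genes 88% were lower and 3.61% higher in the control library, and 86.7% lower and 3.52% higher in the IR library. With the abundant genes taken out of the total 52 and 35 were lower in the control and IR libraries. Of all genes on that scale 62% were lower and 10% higher in the control, and 58.5% lower and 9.3% higher in the IR library, so the share of members that were lower, 63.4% and 42.7%, was no larger than that of all genes in the IR library and close to it in the control. The one member that was not lower in CPM was Rps27l, a relative of Rps27 that p53 induces, with 236 CPM in acinar cells and 196 in B-cells of the control library, and 221 and 133 in the IR library. On the share among member UMIs, which does not depend on the secretory genes, 5 members were higher and 1 lower in control acinar cells, and 4 higher and 1 lower in IR acinar cells. Over all genes on the same scale 22.4% were higher and 39.8% lower in the control, and 20.3% and 37.6% in the IR library. Here and below, this scale divides every gene by the member UMIs. Members are thus centred near 1 by construction, and the shares of all genes also hold the change of the module, so they are not an even background.

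Rps27l took 0.642% of member UMIs in control and 0.527% in IR acinar cells, against 0.0743% and 0.0558% in B-cells. The ratio of acinar cells over B-cells was 8.64 (7.67 to 9.74) in the control library and 9.46 (8.19 to 10.9) in the IR library, the highest of all members in both. Rps27, the partner whose start region is shown above, was the lowest, with 0.837% and 0.675% in acinar cells against 2.22% and 1.45% in B-cells, and ratios of 0.377 (0.352 to 0.403) and 0.467 (0.433 to 0.503). The pair thus moved in opposite directions between the same cells.

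The other members above the 2-fold rule were all of the large subunit. Rpl36al, the relative of Rpl36a, took 0.486% and 0.384% of member UMIs in control and IR acinar cells against 0.182% and 0.161% in B-cells, with ratios of 2.67 (2.4 to 2.96) and 2.38 (2.12 to 2.68). Rpl10, a late-joining protein near the catalytic centre, took 2.5% and 2.95% against 1.04% and 1.41%, with ratios of 2.4 (2.3 to 2.51) and 2.1 (2.01 to 2.19). Rpl7a took 0.932% and 0.977% against 0.421% and 0.475%, with ratios of 2.21 (2.05 to 2.38) and 2.06 (1.92 to 2.21). Rpl41, the smallest ribosomal protein, lay at the limit, with ratios of 2.0 (1.92 to 2.09) in the control library and 1.72 (1.63 to 1.82) in the IR library. Of the acidic stalk proteins, which bind elongation factors, Rplp1 took 4.08% and 3.54% in acinar cells against 2.41% and 2.09% in B-cells, Rplp0 2.79% and 3.14% against 1.84% and 2.42%, and Rplp2 0.991% and 0.74% against 1.24% and 0.931%. Rplp0 and Rplp1 were thus higher and Rplp2 lower in acinar cells, with no one of them past 2-fold.

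The members furthest below 1 in the control library were of the small subunit. After Rps27 came Rps19, a protein needed to mature the small subunit, with a ratio of 0.629 (0.588 to 0.672) in the control library and 0.691 (0.643 to 0.741) in the IR library. Rps15a had 0.661 (0.62 to 0.705) and 0.776 (0.727 to 0.829), and Rps20 0.681 (0.65 to 0.713) and 0.73 (0.696 to 0.765). Every one of these intervals lay below 1 in both libraries.

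**Figure D2:**
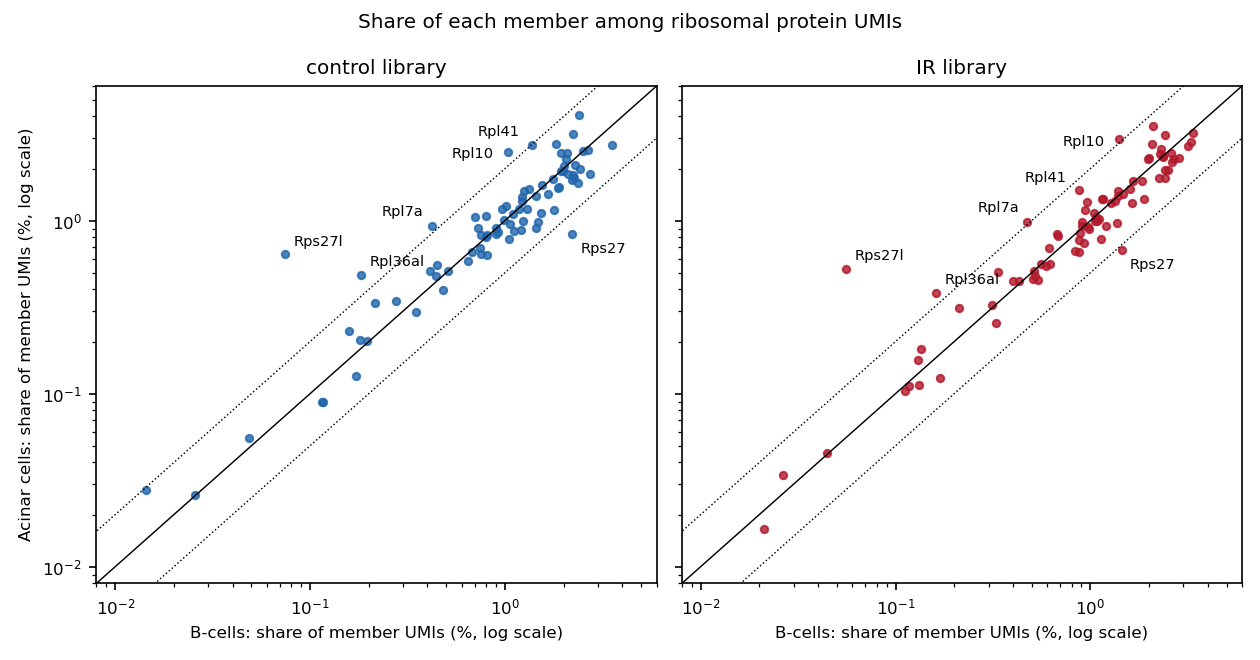
Share of each member among ribosomal protein UMIs (%, log scales) in B-cells (horizontal) and acinar cells (vertical) of the control (left) and IR (right) library, 1 point for each of the 82 members with at least 100 UMIs in both classes together. The solid line marks equal shares and the dotted lines 2-fold differences, and Rps27l stands far above and Rps27 below the other points in both libraries.

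In Etv1+ cells 5 members were at least 2 times higher than in B-cells on this scale in the control library (Rpl10, Rpl36al, Rpl41, Rpl7a and Rps27l) and 1 lower (Rps27), where 39.4% of all genes were higher and 16.3% lower. In the IR library 4 were higher (all but Rpl7a) and Rps27 was lower, where 34.9% and 18% of all genes were. The ratios over B-cells were 8.31 (7.48 to 9.25) and 11.2 (9.78 to 12.8) for Rps27l, 2.89 (2.67 to 3.13) and 3.18 (2.88 to 3.51) for Rpl36al, and 0.293 (0.279 to 0.309) and 0.358 (0.333 to 0.384) for Rps27, in the control and the IR library. For Etv1+ cells set against acinar cells directly, the share of all genes past 2-fold was not computed. No member reached 2-fold, and the lowest in both libraries was Rps26, with ratios of 0.594 (0.541 to 0.654) and 0.703 (0.624 to 0.793). Rpl12, part of the stalk base, had 0.762 (0.721 to 0.807) and 0.746 (0.704 to 0.79). Rpl41 was higher in Etv1+ cells, at 1.23 (1.18 to 1.28) and 1.34 (1.26 to 1.42).

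The share of Rps27l among the UMIs of the Rps27 pair ordered the classes. It was 48.7% (46.9 to 50.4%) in control and 54.6% (52.4 to 56.9%) in IR Etv1+ cells, 43.4% (41 to 45.9%) and 43.8% (41.2 to 46.5%) in acinar cells, 42.2% (38.8 to 45.6%) and 41.6% (37.9 to 45.4%) in intercalated duct cells, and 28.9% (21 to 37.9%) and 33.3% (25.4 to 42.1%) in striated duct cells. It was lowest in T-cell cluster 2, at 1.24% (0.939 to 1.6%) and 1.65% (1.41 to 1.92%), with 1.87% and 2.18% in CD8+ T-cells, 1.99% and 2.51% in T-cell cluster 1 and 3.24% and 3.71% in B-cells. Between them lay endothelial cells (10.4% and 10.8%), dendritic cells (14.6% and 15.3%), cycling cells (16.7% and 20.3%) and macrophage cluster 2 (18.2% and 16.3%). Acinar and intercalated duct cells could not be told apart by their intervals, nor could dendritic, cycling and macrophage cells in the control library. The 4 epithelial classes lay above all others in both libraries, though the intervals of striated duct cells met those of macrophage cluster 2 in the control library and of stromal cells in the IR library.

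Between the libraries the share of Rps27l in the pair differed beyond counting error in Etv1+ cells, where the intervals did not meet. It also did so in stromal cells, at 10.02% (7.62 to 12.9%) in the control library and 22.1% (16.3 to 28.9%) in the IR library, from 54 and 40 UMIs of Rps27l in 40 and 25 cells of a mixed class. In the other classes, acinar cells among them, the intervals met. Rps27l was the only member among the 2000 variable genes used to cluster the cells, and with it left out of the clustering the acinar values were 43.3% and 45%. Without the acinar cells with over 10% of UMIs on members they were 49.2% and 51.9%. Cells with a UMI of Rps27l made up 58.4% of control acinar cells and 41% of control B-cells, and 21.4% and 18.2% after thinning to 1000 UMIs. In the IR library they made up 61% and 28.8%, and 16.6% and 11.6% after thinning. At equal depth a UMI of Rps27l was thus found in much the same share of both cell types in the control library.

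The Rpl36a pair likewise separated epithelial cells from lymphocytes, over a smaller range. Rpl36al took 46.8% (44.9 to 48.6%) of the pair in control and 52.4% (49.9 to 54.8%) in IR Etv1+ cells and 43.1% (40.3 to 45.9%) and 45.9% (42.7 to 49.1%) in acinar cells. In B-cells it took 19.4% (18.4 to 20.5%) and 23% (21.6 to 24.4%), and in T-cell cluster 1 16.5% (15.5 to 17.5%) and 19.96% (18.9 to 21.1%). In these 4 classes except acinar cells the intervals of the libraries did not meet. Rpl36a and Rpl36al each share 100% of the 50-base stretches at their coding ends with other genes, as Rps27 does, while Rps27l shares 49%, so how the counts of a pair are split is uncertain. Rpl22l1, which can replace Rpl22, took 31.8% (28.9 to 34.8%) and 31.3% (28.4 to 34.4%) of the pair in acinar cells and 30.2% (29.1 to 31.3%) and 34.4% (33.1 to 35.8%) in B-cells. In Etv1+ cells it took 32.1% and 33.1%, and in T-cell clusters 1 and 2 and CD8+ T-cells 34%, 35.3% and 36.5% in the control library and 39.7%, 39.9% and 41.5% in the IR library, a smaller range than that of the Rps27 pair. Rpl7l1 took 2.82% of the pair with Rpl7 over all control cells and 1.84% over all IR cells. The tissue-restricted relatives were close to absent. Rpl39l had 9 and 12 UMIs beside 31204 and 31825 of Rpl39. Rpl3l had 0 and 4 beside 31163 and 50731 of Rpl3. Rps4l had 60 and 23 beside 66293 and 113480 of Rps4x, and Rpl10l had none. A count of 0 in a pair leaves room for up to 3 UMIs.

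**Figure D3:**
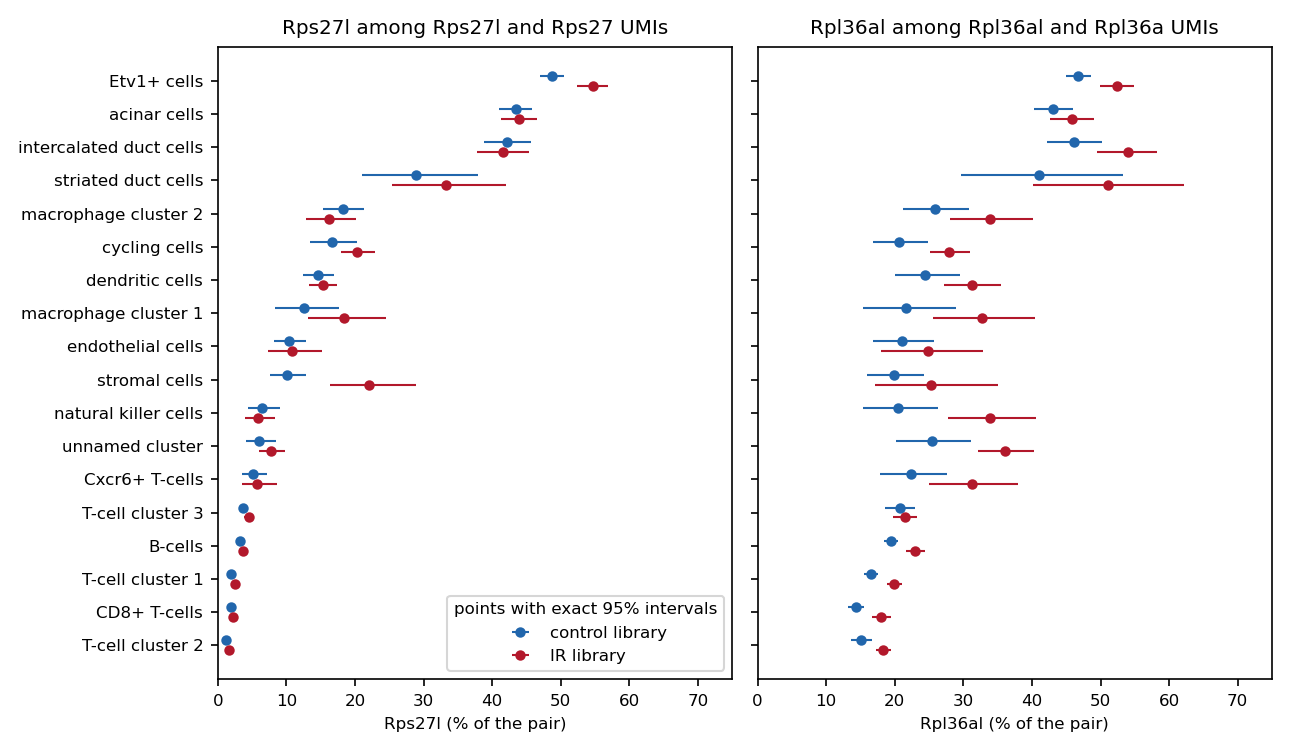
Share of Rps27l among Rps27l and Rps27 UMIs (left) and of Rpl36al among Rpl36al and Rpl36a UMIs (right), in %, by cell class for the control (blue) and IR (red) library, with exact 95% intervals as bars. The 4 epithelial classes lie to the right of the immune, stromal and endothelial classes in both panels.

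Among lymphocytes the module varied less. In T-cell cluster 1 no member passed 2-fold over B-cells on the share among member UMIs in either library, where 4.02% of all genes were higher and 28.1% lower in the control library (5.02% and 19.7% in the IR library). The member furthest above was Rplp1, at 1.61 (1.58 to 1.64) and 1.72 (1.68 to 1.76), and the furthest below Rps27l, at 0.549 (0.468 to 0.642) and 0.646 (0.545 to 0.766). Rps16 had 1.22 (1.19 to 1.26) and 1.27 (1.24 to 1.3), and Rpl12 1.2 (1.18 to 1.23) and 1.23 (1.2 to 1.255). In CPM, Rplp1 was the one member past 2-fold in T-cell cluster 1, at 14375 in the control library and 11571 in the IR library against 6365 and 4968 in B-cells, beside 6.39% and 7.85% of all genes that were higher. Ratios of T-cell cluster 2 over T-cell cluster 1 ran from 0.619 (Rps27l) to 1.14 (Rps3a1) in the control library.

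For a class against all other cells, the share of all genes past 2-fold was not computed. On the share among member UMIs, some members were at least 2 times higher in a class in both libraries, from at least 25 UMIs in each. Rps27l was so in acinar, Etv1+, intercalated duct, striated duct and dendritic cells, with ratios in the control library from 2.1 in dendritic to 5.57 in Etv1+ cells, and Rpl36al in the same epithelial classes, from 2.02 in striated duct to 2.8 in Etv1+ cells. Rpl10 was so in acinar and Etv1+ cells (2.15 and 2.05) and Rpl41 in Etv1+ cells (2.41). Members at 0.5 times or less were Rps27l in B-cells (0.405), CD8+ T-cells (0.213) and T-cell clusters 1 and 2 (0.211 and 0.148), Rps27 in Etv1+ cells (0.339) and Rpl7l1 in T-cell cluster 2 (0.493). The one further case above was Rpl31 in dendritic cells, with ratios of 2.15 (1.84 to 2.5) in the control library and 2.39 (2.09 to 2.73) in the IR library.

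Between the libraries, the summed level of the module was lower in IR lymphocytes. The ratio of IR over control in CPM was 0.90 (95% interval 0.897 to 0.903) in B-cells, 0.868 (95% interval 0.865 to 0.87) in T-cell cluster 1, 0.871 (95% interval 0.867 to 0.875) in T-cell cluster 2, 0.869 (95% interval 0.865 to 0.873) in CD8+ T-cells, 0.931 (95% interval 0.926 to 0.937) in T-cell cluster 3 and 0.835 (95% interval 0.821 to 0.849) in natural killer cells. In these classes the ratios stayed below 1 with abundant genes left out of the total, from 0.844 in natural killer cells to 0.909 in T-cell cluster 3, and TMM factors gave 0.819 in B-cells and 0.761 in T-cell cluster 1. With 1 library of pooled mice for each group, irradiation and the library cannot be told apart.

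In the secretory classes the direction depended on the scale. Acinar cells had a ratio of 1.14 (95% interval 1.13 to 1.15) in CPM, but 0.997 (0.989 to 1.01) with abundant genes left out and 0.876 with TMM factors, and 1.04 in CPM without the acinar cells with over 10% of UMIs on members. Etv1+ cells had 1.08 (95% interval 1.07 to 1.09) in CPM and 0.951 with abundant genes left out. The secretory genes took a smaller share of acinar UMIs in the IR library, as given above, and with these 22 genes alone left out of the total the acinar ratio was 0.991. Intercalated duct cells had 1.02 (95% interval 1.0 to 1.03) in CPM and 0.971 (0.96 to 0.983) with abundant genes left out, and the share of their median cell was 5.4% in the control library and 3.6% in the IR library. Stromal cells had 0.76 (95% interval 0.745 to 0.776) from 40 control and 25 IR cells, and striated duct cells 0.786 (95% interval 0.762 to 0.811) in CPM but 1.15 with abundant genes left out. The unnamed cluster had 1.44 (95% interval 1.42 to 1.46) in CPM and 1.02 on the second scale. Barcodes left out for mitochondrial RNA had 6.15% of UMIs on members in the control library and 10.2% in the IR library.

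The members did not move as one between the libraries. In B-cells none of 82 tested members was at least 1.5 times higher in CPM in IR and 13 were at least 1.5 times lower, where 7.1% of all genes were higher and 2.98% lower. The 13 made up 15.9% of the members. In T-cell cluster 1 none was higher and 16 of 82 were lower, where 9.83% of all genes were higher and 2.11% lower. In acinar cells 4 of 80 were higher (Rpl15, Rpl7, Rps3a3 and Rps6) and 1 was lower (Rpl41), where 18.7% of all genes were higher and 1.97% lower. TMM factors shifted all log2 ratios by -0.38 in acinar cells, -0.14 in B-cells and -0.19 in T-cell cluster 1. With them no member was higher in any of these classes and 12, 23 and 29 were lower, where 9.25%, 5.74% and 4.78% of all genes were lower and 5.48%, 3.94% and 3.27% higher.

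The other large classes gave similar counts in CPM. In T-cell cluster 2 16 of 82 members were lower and none higher, where 7.64% of all genes were lower and 18.6% higher. In CD8+ T-cells 16 of 82 were lower and none higher, where 4.1% and 9.91% of all genes were. In T-cell cluster 3 13 of 81 were lower and 1 higher (Rpl15), where 4.41% and 10.2% of all genes were. Of the secretory and duct classes, intercalated duct cells had 4 lower (Rpl36, Rpl37, Rpl41 and Rps21) and 3 higher (Rpl15, Rpl7 and Rps6) of 79, where 8.18% of all genes were lower and 9.33% higher. Etv1+ cells had 3 lower and 5 higher of 81, where 1.46% and 14.5% of all genes were.

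The share among member UMIs does not depend on such scalings. On it 2 members were at least 1.5 times higher (Rpl15 and Rps6) and 5 lower (Rpl27, Rpl37, Rpl37a, Rpl41 and Rps28) in IR acinar cells, where 9.25% of all genes were higher and 3.94% lower. In B-cells 2 were higher (Rpl15 and Rps6) and 4 lower (Rpl36, Rpl41, Rps21 and Rps27), where 14.2% and 1.7% of all genes were. In T-cell cluster 1 2 were higher (Rpl15 and Rps6) and 4 lower (Rpl36, Rpl37, Rpl41 and Rps21), where 25.1% and 0.981% of all genes were. Dividing by member UMIs centres the members near 1 and shifts all other genes, in T-cell cluster 1 from 9.83% higher in CPM to 25.1%. The shares of all genes on this scale are thus not an even background. All classes come from the same 2 libraries, so their values stand side by side and are not independent.

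Values are given for acinar cells and B-cells. Rpl15, a large subunit protein, took 0.335% of member UMIs in control and 0.503% in IR acinar cells, and 0.216% and 0.336% in B-cells, with ratios of 1.5 (1.31 to 1.72) and 1.55 (1.44 to 1.67). Rps6, the substrate of S6 kinase, took 0.551% and 0.837% in acinar cells and 0.448% and 0.674% in B-cells, with ratios of 1.52 (1.37 to 1.69) and 1.5 (1.43 to 1.58). Over the classes with at least 100 UMIs, the ratios ran from 1.36 to 1.76 for Rpl15 (16 classes) and from 1.41 to 2.43 for Rps6 (18 classes). Next came Rpl7, at 1.39 (1.28 to 1.51) in acinar cells and 1.41 (1.36 to 1.46) in B-cells, Rps3a3, at 1.35 (1.28 to 1.43) and 1.31 (1.28 to 1.34), and Rps2, at 1.23 (1.14 to 1.33) and 1.37 (1.32 to 1.43). Rpl6l, annotated as a processed pseudogene like Rps3a3, had a ratio of 1.47 (1.1 to 1.98) in B-cells and too few UMIs in acinar cells.

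The lowest was Rpl41, with 2.75% of member UMIs in control and 1.5% in IR acinar cells and 1.37% and 0.869% in B-cells, and ratios of 0.546 (0.514 to 0.579) and 0.633 (0.61 to 0.657). Its ratios in the 18 classes ran from 0.383 to 0.858. In acinar cells it was followed by Rpl27 at 0.611 (0.491 to 0.759), Rps28 at 0.642 (0.562 to 0.733), Rpl37a at 0.657 (0.607 to 0.712) and Rpl37 at 0.665 (0.611 to 0.723), for which B-cells had 0.863, 0.752, 0.674 and 0.678. In B-cells it was followed by Rpl36 at 0.636 (0.603 to 0.67), Rps21 at 0.649 (0.627 to 0.67), Rps27 at 0.652 (0.633 to 0.671) and Rpl37a, for which acinar cells had 0.674, 0.702, 0.807 and 0.657. The relatives Rps27l and Rpl36al had 0.822 (0.736 to 0.918) and 0.79 (0.694 to 0.898) in acinar cells and 0.751 (0.644 to 0.874) and 0.884 (0.806 to 0.969) in B-cells. Rps27a stayed near 1, at 1.06 (0.99 to 1.13) and 1.06 (1.03 to 1.1), while Rpsa had 1.1 (1.04 to 1.16) and 1.24 (1.21 to 1.27).

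Of the stalk proteins, Rplp0 had ratios of 1.13 (1.07 to 1.18) in acinar cells and 1.32 (1.29 to 1.36) in B-cells, Rplp1 0.867 (0.831 to 0.905) and 0.867 (0.846 to 0.889), and Rplp2 0.747 (0.682 to 0.818) and 0.75 (0.723 to 0.779). The mRNAs of the stalk proteins thus differed in direction, Rplp0 being higher and Rplp1 and Rplp2 lower in the IR library. Their coding lengths are 954, 345 and 348 bases, and the relation of the ratios of all members with coding length is given below. Rpl22 had 0.888 (0.796 to 0.99) and 0.773 (0.739 to 0.809), and Rpl22l1 0.869 (0.739 to 1.02) and 0.939 (0.88 to 1.0). Across all members the SD of the log2 ratios was 0.32 in acinar cells, 0.34 in B-cells and 0.34 in T-cell cluster 1.

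**Figure D4:**
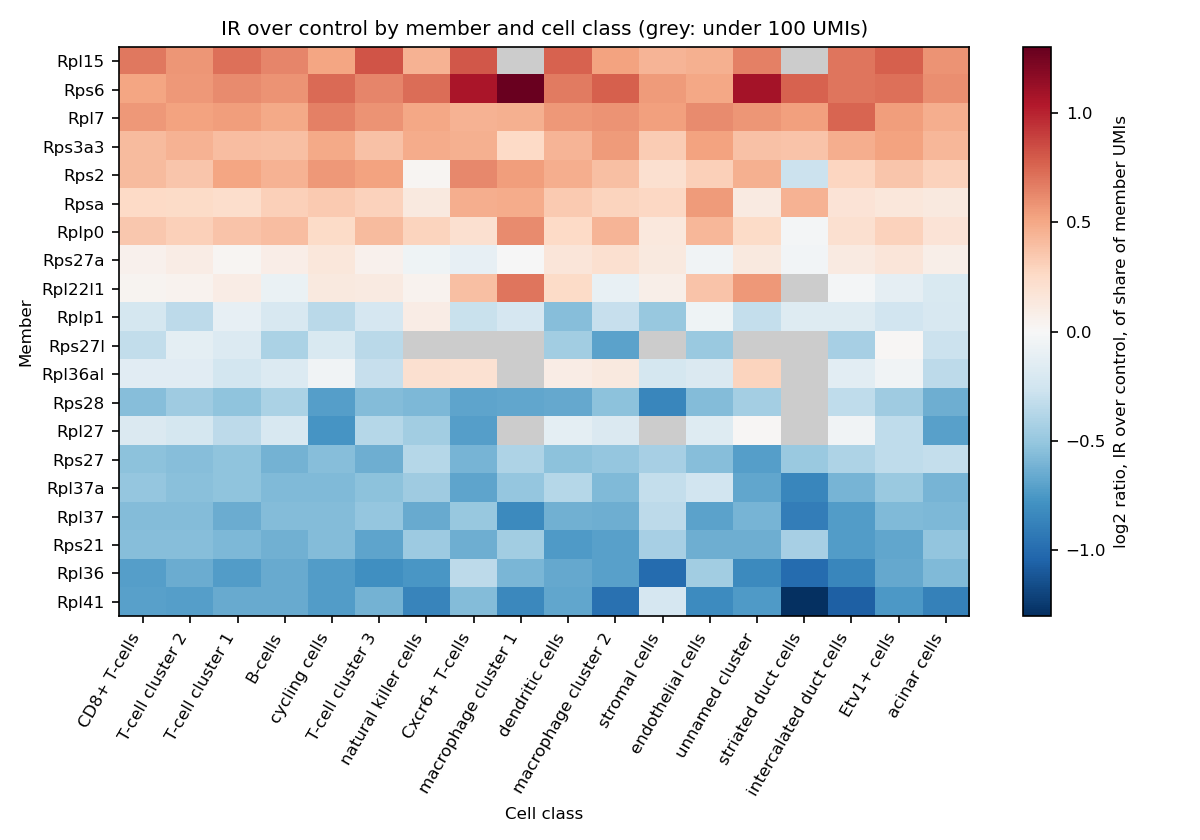
Log2 ratio of IR over control of the share among member UMIs (colour, red higher in IR and blue lower) for 20 members (rows) in 18 cell classes (columns), with grey where a class had under 100 UMIs of the member. Rpl15, Rps6, Rpl7 and Rps3a3 are red and Rps28, Rps27, Rpl37a, Rpl37, Rps21, Rpl36 and Rpl41 blue in every class with a value.

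The members that were lower in the IR library were the short ones. Across 80 members in B-cells the CPM ratio rose with coding length with a Spearman rho of 0.89, across 80 in T-cell cluster 1 with 0.86 and across 79 in acinar cells with 0.83. These are descriptions across genes of the same 2 libraries, and genes are not independent replicates. In B-cells the 10 members with under 300 coding bases had a median log2 ratio of -0.70, the 47 from 300 to under 600 bases -0.30 and the 23 of 600 or more 0.13. In acinar cells the medians were -0.32, 0.04 and 0.41. Rpl41 has 78 coding bases, Rps28 210, Rpl36 318, Rpl15 615, Rps6 750 and Rpl4, the longest, 1260.

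By rho, the same relation was weaker, absent or of the opposite sign among other genes. The 2 sets are unlike in length. In B-cells 3378 of the 4187 other genes had 600 or more coding bases, against 23 of the 80 members. Over 4187 other genes in B-cells the rho with coding length was 0.01, and over 3722 in T-cell cluster 1 0.09. Over 1029 in acinar cells it was -0.01. Across the classes it ran from -0.12 over 2970 genes in Etv1+ cells to 0.39 over 128 genes in striated duct cells. In the band under 300 coding bases the median log2 ratio was -0.13 over 149 other genes in B-cells, -0.04 over 133 other genes in T-cell cluster 1 and 0.00 over 91 in acinar cells, where the medians over all other genes with a coding length were 0.11, 0.21 and 0.30. A different set, which also holds genes without a coding length, were the other genes with transcripts under 500 bases. There were 72 in B-cells, 71 in T-cell cluster 1 and 31 in acinar cells. They had median log2 ratios of -0.32, -0.47 and -0.30, against 0.10, 0.21 and 0.30 over all. In every class the median of this band lay below the median over all bands. Members were not set in bands of transcript length, so whether the relation is particular to them was not tested. The ratio of the members did not follow the GC content of their transcripts (rho of 0.10 in B-cells and 0.02 in acinar cells) or the number of genes that share their coding ends (0.13 and 0.15). Among members with at most 50% of their coding end shared, the rho with coding length was 0.85 in B-cells (n = 11) and 0.77 in acinar cells (n = 10). The part that the length of captured molecules or of library fragments has in these ratios was not tested, and with 1 library for each group it cannot be told apart from irradiation. The difference between acinar cells and B-cells within a library showed no such relation (rho of 0.15 in the control library and 0.11 in the IR library, n = 80).

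**Figure D5:**
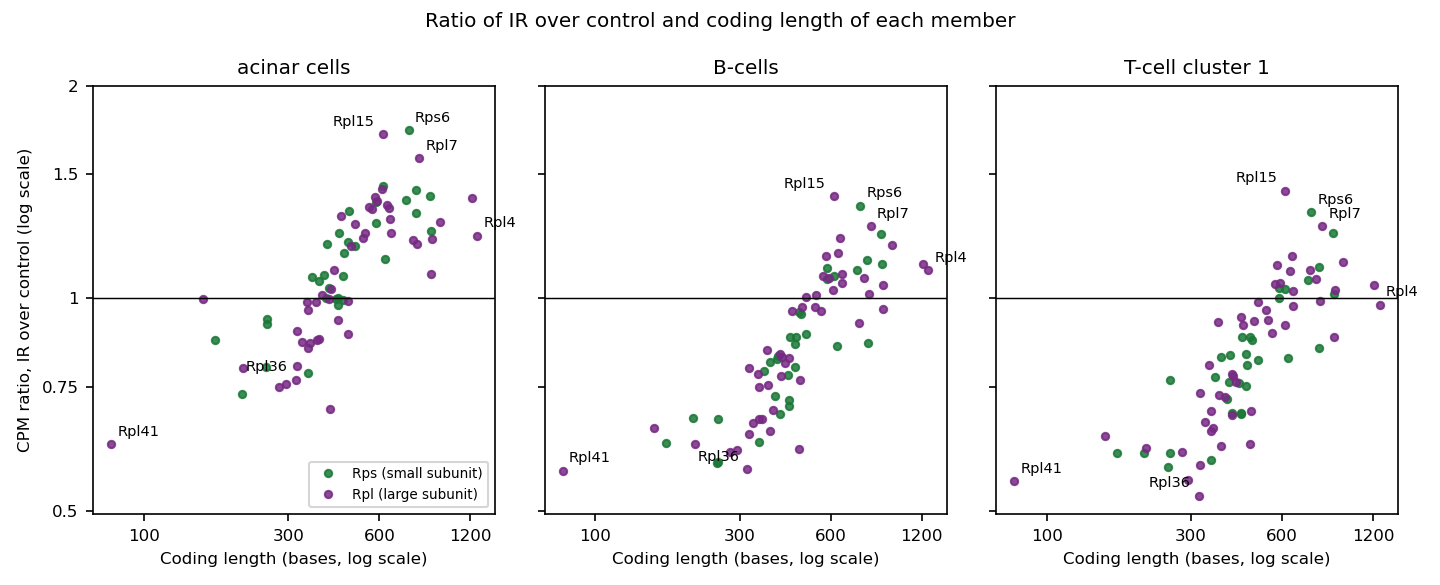
CPM ratio of IR over control (vertical, log scale) against coding length (horizontal, bases, log scale) for each member with at least 100 UMIs, in acinar cells, B-cells and T-cell cluster 1, with small subunit members in green and large subunit members in purple. The line marks a ratio of 1. Short members such as Rpl41 and Rpl36 lie below it in all 3 panels, and Rpl15, Rps6 and Rpl7 lie highest.

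Members with the pyrimidine tract exactly at the annotated start had a median ratio of IR over control of 0.837 in B-cells on the share among member UMIs (0.649 to 1.55, n = 13), and the other members with a start region had 0.95 (0.633 to 1.37, n = 48). In acinar cells the medians were 0.906 and 0.962. The ranges overlapped widely, and the tract is shared by Rps6 and Rpl15 at one end and by Rps27 and Rps21 at the other.

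Other genes of the translation machinery are set beside the module, in CPM. TMM factors lower every ratio of a class by the shifts given above, so the order of lists within a class does not depend on them. The elongation factors, which carry TOP tracts as well, had summed ratios of IR over control of 1.12 (1.1 to 1.14) in B-cells, 1.02 (1.0 to 1.03) in T-cell cluster 1 and 1.27 (1.24 to 1.31) in acinar cells. Of 6 tested genes 1 was at least 1.5 times higher in acinar cells (Eef1b2) and none in B-cells, where 18.7% and 7.1% of all genes were. Eef1a1, which brings aminoacyl-tRNA to the ribosome, had 8552 CPM in the control library and 9606 CPM in the IR library in B-cells and 1510 and 1960 in acinar cells. Eef2, the translocase, had ratios of 1.12 (1.07 to 1.17) and 0.995 (0.912 to 1.09). Summed over all lengths, the members thus lay below the elongation factors in the IR lymphocytes, where their summed ratio was 0.90 in B-cells. The 23 members of 600 or more coding bases had median ratios of 1.1 in B-cells and 1.05 in T-cell cluster 1. These are medians over genes and not sums, and the lists were not compared at equal coding length.

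The list of 12 other TOP mRNAs had 1.12 (1.11 to 1.14) in B-cells, 1.1 (1.09 to 1.12) in T-cell cluster 1 and 1.36 (1.33 to 1.4) in acinar cells. None of its 12 tested genes passed 1.5-fold in B-cells, where 7.1% of all genes were higher and 2.98% lower. In acinar cells 4 of 11 were higher, where 18.7% of all genes were. These were Npm1, a nucleolar chaperone, at 1.79 (1.54 to 2.1), Eif3e at 1.89 (1.44 to 2.49), Hnrnpa1 at 1.67 (1.21 to 2.34) and the noncoding Gas5 at 1.58 (1.13 to 2.22). Tpt1 had ratios of 1.1 (1.08 to 1.12) in B-cells and 1.35 (1.31 to 1.39) in acinar cells, and Pabpc1, the poly(A)-binding protein, 1.3 (1.2 to 1.41) and 1.09 (0.953 to 1.26). Rack1, a small subunit component without an Rps name, had 1.12 (1.09 to 1.16) and 1.39 (1.29 to 1.49). Fau, which encodes a ribosomal protein fused to a ubiquitin-like one, had 0.764 (0.745 to 0.783) in B-cells and 1.0 (0.93 to 1.08) in acinar cells.

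Ribosome biogenesis factors had a summed ratio of 0.888 (0.855 to 0.922) in B-cells, 1.38 (1.23 to 1.55) in acinar cells and 0.722 (0.665 to 0.784) in cycling cells. None of 17 tested genes passed 1.5-fold in B-cells, where 7.1% of all genes were higher and 2.98% lower. In acinar cells 1 of 3 was higher (Nhp2), where 18.7% of all genes were higher and 1.97% lower. In cycling cells 2 of 8 were lower (Nop58 and Ncl), where 8.62% of all genes were lower and 10.5% higher. The list of 13 genes for the mTOR and S6 kinase route also holds Myc and Mdm2. Of it 9 genes were tested in B-cells, where only Myc was higher, at 2.23 (1.69 to 2.96), and none lower. In acinar cells 2 were tested, and Rheb, the activator of mTOR, was higher at 1.69 (1.26 to 2.28). Of all genes 7.1% were higher in B-cells and 18.7% in acinar cells. Mitochondrial ribosomal proteins, which belong to a separate ribosome, had 1.0 (0.972 to 1.04) in B-cells and 1.24 (1.18 to 1.3) in acinar cells. Of 59 tested in B-cells 0 were higher and 1 lower (Mrps6), and of 28 in acinar cells 5 were higher and 1 lower. Of all genes 7.1% were higher and 2.98% lower in B-cells, and 18.7% and 1.97% in acinar cells. Acinar cells were also set against B-cells, with abundant genes left out of the total. For the control library the mitochondrial set had a ratio of 1.02, elongation factors 0.66, the cytosolic members 0.474 and biogenesis factors 0.235. For the IR library these ratios were 1.11, 0.663, 0.529 and 0.322. The median CPM ratio of single members was 0.139 for control and 0.171 for IR. Over all tested genes the medians were 0.0982 and 0.131, so the median member lay above the median gene.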

How the data were processed

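Per the labels and the study's methods, parotid cells of 2 mice per group were made into 1 library each with the 10x Chromium kit. Alignment to mm10 and UMI counting were done by the authors with Cell Ranger (version 3.0.1 in the submitters' processing notes, which also name Seurat 3). The deposited files hold raw counts of UMIs for each gene in each barcode. How empty droplets were removed is not given in the sources used here.

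Cells needed 200 genes and no more than 5% mitochondrial UMIs. They were joined across libraries through anchors and then clustered in Seurat 5.3.0 (R 4.3.3) on 2000 variable genes and 30 components at a resolution of 0.4, with 1 cluster split by its groups at 0.6. Clusters were named where at least 3 markers were 2 times above other cells. UMIs were summed per class and library, and intervals came from scipy 1.17.1. Doublets were scored with Scrublet (scanpy 1.11.5), and TMM factors with edgeR 4.0.16. Fold rules were 1.5 between the libraries and 2 between classes, over genes with at least 100 UMIs and 1 in each group. Genes were named for the 5 highest and lowest shares and ratios, for class ratios of at least 2, or from a list of paralogs and known translation genes, with list genes also named where they passed the fold rule. Rps26, Rpl12, Rps16 and Rpl4 were named after their values were seen, and the secretory list was chosen after seeing the data. The members and lists were chosen with earlier results of these data known. Values of some single genes that the rule names are not reported here. On simulated counts with 200 changed genes all 200 were called in acinar cells (1150 genes tested) and in B-cells (4355). Unchanged genes were called as well, 13 in acinar cells and 57 in B-cells. Intervals contained the simulated ratio in 96.1% and 95.5% of genes. The spread between mice or libraries was not tested, nor was how often genes changed by close to 1.5-fold are called. Alternatives were other filters, clusterings, scalings, fold rules and UMI limits, and those on resolution 0.6, doublet scores, acinar cells over 10%, secretory genes and unshared coding ends were chosen after seeing the data.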

Additional observations from a re-analysis of the deposited data

Results flagged for a closer look

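The summed ribosomal protein level moved in opposite directions between the libraries in secretory cells and in lymphocytes. The ratio of IR over control in CPM was 1.14 in acinar cells, 0.90 in B-cells and 0.868 in T-cell cluster 1. The difference between these ratios was not tested, since each group has 1 library, and on 2 other scales the acinar ratio was 0.997 and 0.876.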

How the results depend on the processing

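No paired analysis was possible because each group has 1 library. Among the shares, ratios and counts, 144 alternative values stayed within their intervals or, for counts, within 1.5 times, 115 moved further and 3 changed direction. Some of the 144 could not move. A scaling leaves counts on the share among member UMIs unchanged, and leaving out acinar cells leaves B-cell values unchanged. Values with cells thinned to 1000 UMIs are means over cells, not shares of summed UMIs. The median thinned acinar cell had 3.4% for control and 3.4% for IR. The higher IR value of thinned acinar cells below is thus one of the mean and not of the median cell. The shares of UMIs on members in acinar cells and B-cells became 3.72% (acinar, control), 4.33% (acinar, IR), 24.4% (B, control) and 22.5% (B, IR) with a mitochondrial limit of 10%, 3.72% (acinar, control), 4.42% (acinar, IR), 23.6% (B, control) and 21.3% (B, IR) with no mitochondrial limit, 3.92% (acinar, control), 4.77% (acinar, IR), 25.8% (B, control) and 22.3% (B, IR) with at least 500 genes per cell, 4.13% (acinar, IR) with clustering without members, 3.54% (acinar, control) and 3.88% (acinar, IR) with no integration, 3.36% (acinar, control), 3.66% (acinar, IR) and 23.6% (B, IR) with 6% of cells by doublet score left out, 14% (acinar, control), 13.9% (acinar, IR), 29.4% (B, control) and 26.3% (B, IR) with abundant genes left out, 13.8% (acinar, control), 13.6% (acinar, IR), 28.4% (B, control) and 25.3% (B, IR) with secretory genes left out, 3.42% (acinar, control), 3.53% (acinar, IR), 26.2% (B, control) and 23% (B, IR) with the median cell, 3.84% (acinar, control), 4.62% (acinar, IR), 25.9% (B, control) and 23.2% (B, IR) with cells thinned to 1000 UMIs, 4.21% (acinar, IR), 26.6% (B, control) and 23.9% (B, IR) with pseudogene UMIs added, 3.43% (acinar, control) and 3.57% (acinar, IR) with acinar cells over 10% left out. The ratio of acinar cells over B-cells stayed below 1 under all settings run. In the control library it was 0.152 with a mitochondrial limit of 10%, 0.157 with no mitochondrial limit, 0.152 with at least 500 genes per cell, 0.134 with no integration, 0.127 with 6% of cells by doublet score left out, 0.474 with abundant genes left out, 0.485 with secretory genes left out, 0.131 with the median cell, 0.148 with cells thinned to 1000 UMIs and 0.13 with acinar cells over 10% left out. In the IR library it was 0.192 with a mitochondrial limit of 10%, 0.208 with no mitochondrial limit, 0.214 with at least 500 genes per cell, 0.174 with clustering without members, 0.163 with no integration, 0.155 with 6% of cells by doublet score left out, 0.529 with abundant genes left out, 0.539 with secretory genes left out, 0.153 with the median cell, 0.199 with cells thinned to 1000 UMIs and 0.15 with acinar cells over 10% left out. The ratio of IR over control in acinar cells turned below 1 with abundant or secretory genes left out and with TMM factors, and was 1.16 with a mitochondrial limit of 10%, 1.19 with no mitochondrial limit, 1.22 with at least 500 genes per cell, 1.13 with clustering without members, 1.1 with no integration, 1.09 with 6% of cells by doublet score left out, 0.997 with abundant genes left out, 0.991 with secretory genes left out, 0.876 with TMM factors, 1.03 with the median cell, 1.2 with cells thinned to 1000 UMIs and 1.04 with acinar cells over 10% left out. In B-cells it stayed below 1, at 0.92 with a mitochondrial limit of 10%, 0.865 with at least 500 genes per cell, 0.896 with 6% of cells by doublet score left out, 0.894 with abundant genes left out, 0.892 with secretory genes left out, 0.819 with TMM factors, 0.881 with the median cell and 0.895 with cells thinned to 1000 UMIs. In T-cell cluster 1 it stayed below 1, at 0.873 with no mitochondrial limit, 0.883 with at least 500 genes per cell, 0.871 with clustering without members, 0.861 with no integration, 0.864 with abundant genes left out, 0.862 with secretory genes left out, 0.761 with TMM factors and 0.864 with the median cell. The number of members higher in IR in acinar cells was 7 with at least 500 genes per cell, 1 with abundant genes left out, 1 with secretory genes left out, 0 with TMM factors, 24 with a looser fold rule, 0 with a fold rule of 2, 2 with acinar cells over 10% left out and 1 with members with mostly unshared coding ends alone, and the number lower 2 with 6% of cells by doublet score left out, 5 with abundant genes left out, 5 with secretory genes left out, 12 with TMM factors, 9 with a looser fold rule, 0 with a fold rule of 2, 2 with acinar cells over 10% left out and 0 with members with mostly unshared coding ends alone. In B-cells it was 4 with a looser fold rule for members higher and 23 with TMM factors, 32 with a looser fold rule, 0 with a fold rule of 2 and 1 with members with mostly unshared coding ends alone for members lower, where the last setting counts 12 members. Between acinar cells and B-cells, members with a higher share numbered 9 with a fold rule of 1.5 in the control and 2 with no mitochondrial limit and 2 with at least 500 genes per cell in the IR library, members with a lower share 4 with a fold rule of 1.5 and 0 with at least 500 genes per cell, and members lower in CPM 52 with abundant genes left out and 52 with secretory genes left out and 35 with abundant genes left out and 32 with secretory genes left out. With abundant genes left out, 8.9% of all genes were higher and 4.02% lower in IR acinar cells. Among these settings the share of all genes was computed only with abundant genes left out and with TMM factors. The counts of members under the other settings thus have no background to be set against. For Rps27l, Rpl15 and Rpl41, 83 of 92 alternative values stayed within their intervals. Part of these were fixed in advance, since these values do not depend on the total and settings that change only the total cannot move them. Leaving out acinar cells likewise cannot move their B-cell values. A change of direction was defined only for the ratios of Rpl15 and Rpl41, and none occurred. Genes under about 100 UMIs in a class are too shallow to compare, and the causes of these shifts were not tested.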
